A study of Rattus norvegicus with 44 samples.

Results

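Protocadherins were taken as every gene whose symbol begins with Pcdh in the deposited expression table of the rat dentate gyrus, after the rows of one Ensembl gene identifier were summed. Of 18347 gene identifiers, 48 were protocadherins with a value above 0. They comprised 37 genes of the clustered families (3 Pcdha, 16 Pcdhb and 18 Pcdhg identifiers) and 11 other genes: Pcdh1, Pcdh7 and Pcdh9 of the delta-1 type, Pcdh8, Pcdh10, Pcdh17, Pcdh18 and Pcdh19 of the delta-2 type, and Pcdh12, Pcdh15 and Pcdh20. All 48 had a mean of at least 5 normalized reads over the 44 rats, the level set for testing, which 15598 of the 18347 identifiers reached, and no protocadherin was at 0 in any rat.

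Protocadherins are cell surface adhesion proteins of the cadherin superfamily. In the 3 gene clusters, each variable exon has its own promoter, neurons switch on different sets of these promoters, and the encoded isoforms bind the same isoform on a facing membrane, which lets a neuron tell its own branches from those of others. CTCF and cohesin loop a distant enhancer to the chosen promoter, and DNA methylation silences promoters that are not chosen. The delta protocadherins are encoded by single genes with more regional patterns and take part in sorting axons and shaping synapses.

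The libraries came from the dentate gyrus, the hippocampal region whose main neuron is the granule cell, of male Fischer 344 rats, one library per rat. Young rats (YNG, n = 10) were 6 months old and received vehicle. Older rats were 12 months old when treatment began and 18 months old when tissue was collected, and they received by oral gavage vehicle (AV, n = 12), the Bcl-2 family inhibitor ABT-263 at 12 mg/kg (AA, n = 11), or dasatinib, a tyrosine kinase inhibitor, at 1.2 mg/kg with quercetin, a plant flavonoid, at 12 mg/kg (ADQ, n = 11). Both treatments are called senolytics because they are meant to remove senescent cells, and each was given on 5 consecutive days per cycle for 8 cycles and once more before the end. The comparisons address what differs between young and older rats, and whether either senolytic changed it.

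Each value is a read count that the authors scaled between libraries by the median ratio of all genes, called here a normalized read count, and it is not corrected for gene length. The totals per rat ran from 14297964 to 20579982 normalized reads. Genes were compared with limma on log2(value + 1), so fold changes of low genes are understated, and a gene is called higher or lower at an unadjusted p below 0.05, the threshold the study used, with the Benjamini-Hochberg adjusted p over all 15598 tested genes given beside it. The levels of cell type markers differed between rats. The summed level of 6 granule cell markers (C1ql2 the most abundant, with 2 of the 6 at a mean under 5) had a median of 11964 in YNG rats, 9750 in AV rats, 10491 in AA rats and 9654 in ADQ rats, but it was only 6079 and 6873 in AV rats 3989 and 4571 and 5129 and 2672 in AA rats 3996 and 4107. The summed level of 5 markers of CA1 pyramidal neurons, which lie outside the dentate gyrus, ran from 1835 to 42737 over all rats and was highest in AA rat 4107. In bulk tissue, fewer cells of a type and less RNA per cell cannot be told apart.

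Variable promoters of the clusters share a conserved element with a CGCT core, a known place of CTCF binding. Promoter sequences from RefSeq (assembly GRCr8, not the rn6 build used for the values, 250 bases before to 50 bases after the start) were matched by symbol for 38 of the 48 identifiers. The longest run of letters shared by the promoters of all 14 matched Pcdhb genes was GGTGGCGCTG, which holds this core and which, searched on both strands, was in 74 of 33469 promoters in all (0.221%). The element ended between 36 and 219 bases before the start, with a median of 58.5. It is shown in capitals, with 20 bases on each side, for the Pcdhb genes that were higher in older rats at an adjusted p below 0.05 and then for 3 Pcdhb genes whose changes were near 0.
Pcdhb5, chr18:29302394-29302443, plus strand: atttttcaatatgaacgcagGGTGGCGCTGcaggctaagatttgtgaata
Pcdhb4, chr18:29292201-29292250, plus strand: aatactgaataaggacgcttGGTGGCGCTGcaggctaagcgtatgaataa
Pcdhb6, chr18:29320142-29320191, plus strand: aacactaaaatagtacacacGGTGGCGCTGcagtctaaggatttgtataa
Pcdhb14, chr18:29431799-29431848, plus strand: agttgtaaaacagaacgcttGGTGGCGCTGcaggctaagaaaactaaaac
Pcdhb20, chr18:29485800-29485849, plus strand: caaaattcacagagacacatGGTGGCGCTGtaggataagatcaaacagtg
Pcdhb19, chr18:29478754-29478803, plus strand: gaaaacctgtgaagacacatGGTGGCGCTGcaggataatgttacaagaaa
Pcdhb10, chr18:29391768-29391817, plus strand: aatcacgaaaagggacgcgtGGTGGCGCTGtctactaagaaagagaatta
Pcdhb9, chr18:29379238-29379287, plus strand: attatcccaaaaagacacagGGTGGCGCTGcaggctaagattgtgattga
The element was chosen because all 14 matched Pcdhb promoters share it. Its presence both in genes that were higher and in those with log2 changes of 0.00, 0.01 and 0.04 (Pcdhb19, Pcdhb10 and Pcdhb9) was therefore fixed beforehand. It says nothing about which genes changed.

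Among the 48 protocadherins, 12 were higher and 3 lower when all 34 older rats were set against the 10 YNG rats (31.2%, against 32.4% of all 15598 tested genes, of which 15.7% were higher and 16.7% lower), so the share called was near the background. At an adjusted p below 0.05, 8 were higher and 1 was lower (18.8%), beside 14.9% of all tested genes (6.65% higher and 8.23% lower). The called members are given next by family, and a difference between families was not tested. In the Pcdhb cluster 7 of 16 genes were higher and none lower, and all 16 fitted changes were above 0, with a median of 0.24 on the log2 scale beside 0.00 for all tested genes. With libraries scaled to the same total or to the upper quartile, 10 and 8 of the 16 were higher, none was lower and all 16 changes stayed above 0. These scalings also moved all tested genes, with the same total to a median of 0.13 (31.8% higher and 6.49% lower) and with the upper quartile to one of 0.04 (19.2% higher and 14% lower). Without the 4 rats of low granule cell markers, 8 of the 16 were higher and 15 changes were above 0. With 1 rat left out at a time 5 to 9 were higher, none was lower and 12 to 16 changes were above 0. The share of all tested genes in these fits is not given here. In the Pcdhg cluster 4 of 18 genes were higher and 1 lower (median 0.07), in the Pcdha cluster 1 of 3 was higher, and among the 11 other genes none was higher and 2 of the delta-2 type were lower.

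**Figure D1:**
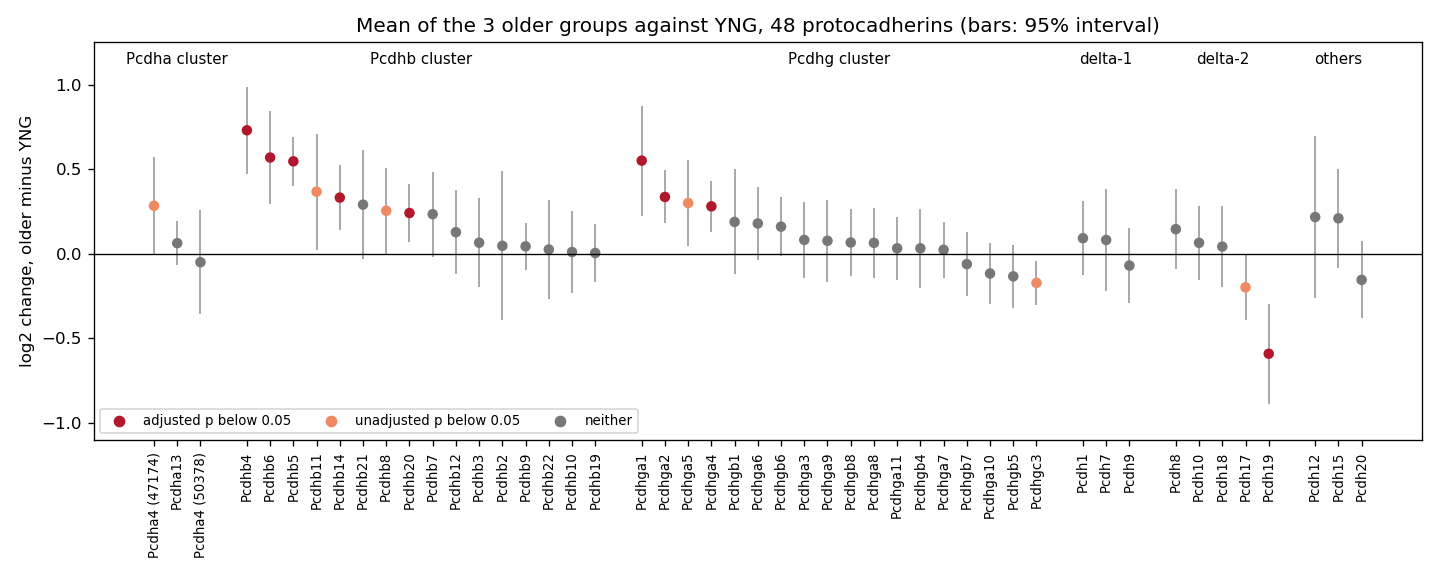
Log2 change of each of the 48 protocadherins in all older rats against YNG rats (y axis, log2 scale of value + 1), grouped by family along the x axis. Points give the limma estimate, bars the 95% confidence interval and color the p reached. All 16 Pcdhb points lie above 0, and Pcdh19 has the lowest point at -0.59.

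Pcdhb5, whose protein is one of the isoforms that engage the same isoform across a membrane contact, separated young from older rats most clearly. It had a lowest, median and highest normalized read count of 207, 240 and 310 in YNG rats, 312, 364 and 478 in AV rats, 263, 378 and 417 in AA rats, and 332, 358 and 461 in ADQ rats. All 12 AV rats, all 11 ADQ rats and 10 of 11 AA rats were above the highest YNG rat. In all older rats against YNG, Pcdhb5 was 1.46-fold higher (log2 change 0.55, SE 0.07, p = 3.21e-10, adjusted p = 1.25e-06).

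The genes on either side of Pcdhb5 in the cluster, Pcdhb4 and Pcdhb6, encode isoforms of the same kind and were also higher. Pcdhb4 had a lowest, median and highest value of 40.3, 73.2 and 105.9 in YNG rats, 84.5, 115.2 and 193.9 in AV rats, 87.1, 117.9 and 183.4 in AA rats, and 81.7, 129.3 and 170.3 in ADQ rats. Every group of older rats overlapped the YNG range, but 7 of 12 AV, 8 of 11 AA and 7 of 11 ADQ rats were above the highest YNG rat. The log2 change was 0.73 (SE 0.12, 1.66-fold, adjusted p = 0.000574), the largest among the 48 genes.

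Pcdhb6 had a lowest, median and highest value of 31.04, 47.5 and 66.2 in YNG rats, 43.3, 66.8 and 89.1 in AV rats, 58.5, 72.2 and 95.6 in AA rats, and 41.0, 70.8 and 110.2 in ADQ rats. The lower older rats lay inside the YNG range, and 6 AV, 9 AA and 6 ADQ rats lay above it. Its log2 change was 0.57 (SE 0.13, 1.48-fold, adjusted p = 0.00724). Pcdhb4, Pcdhb5 and Pcdhb6 are numbers 3, 4 and 5 of the 16 Pcdhb genes in RefSeq order and had the 3 largest changes of the cluster. Reads that fit more than one of these similar single-exon genes could be split between them by the counting, so the values of neighbors may not be fully separate.

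Further along the cluster, Pcdhb14 was higher in older rats. Its lowest, median and highest values were 85.4, 94.2 and 127.2 in YNG rats, 66.2, 119.6 and 160.4 in AV rats, 92.3, 127.4 and 168.8 in AA rats, and 103.1, 129.3 and 168.9 in ADQ rats. The ranges overlapped, with 4 AV, 6 AA and 6 ADQ rats above every YNG rat and 1 AV rat below every YNG rat. The log2 change was 0.33 (SE 0.09, adjusted p = 0.0171). Pcdhb14, like Pcdhb6, went against the summed markers of red blood cells (r = -0.54) and microglia (r = -0.45), whose part was not tested. Pcdhb20 passed by less: its medians were 103.3 in YNG rats, 120.9 in AV rats, 109.7 in AA rats and 122.5 in ADQ rats, the ranges overlapped, and its log2 change was 0.24 (SE 0.08, adjusted p = 0.0415). The adjusted call of Pcdhb20 was lost in 12 of the 44 fits with 1 rat left out (up to 0.106, without YNG rat V12). Pcdhb11 (log2 change 0.37, p = 0.0335) and Pcdhb8 (log2 change 0.25, p = 0.0436) reached the unadjusted threshold alone, with adjusted p of 0.12 and 0.141. Both calls were lost when single rats were left out, with p of up to 0.112 for Pcdhb11 (without YNG rat V1) and 0.125 for Pcdhb8 (without YNG rat V4). By contrast, Pcdhb19 and Pcdhb9, which with Pcdhb5 had the highest means in the cluster, had medians of 243 and 240 in YNG rats and between 240 and 253 in the older groups.

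**Figure D2:**
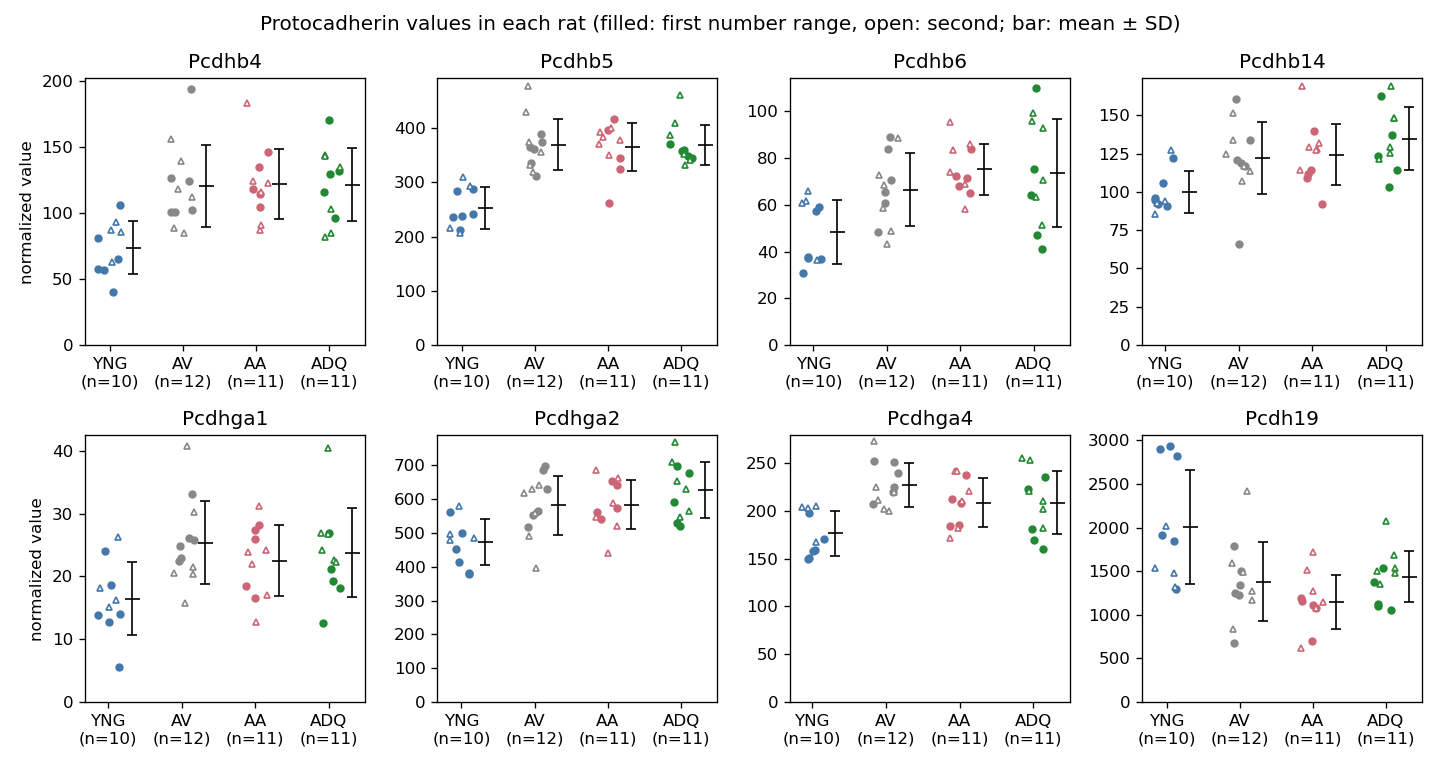
Normalized read counts per rat (y axis, linear from 0) of 8 protocadherins in the YNG, AV, AA and ADQ groups, with filled points for the lower-numbered rats, open points for the higher-numbered rats, and bars for mean ± SD. The Pcdhb5 points of all but 1 older rat lie above the YNG points, while the Pcdh19 points of most AA rats lie below them.

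In the Pcdhg cluster, whose variable exons are spliced to shared constant exons, the 4 genes that were higher (Pcdhga1, Pcdhga2, Pcdhga4 and Pcdhga5) were among the first 6 of the 14 genes with a RefSeq position, and the gene that was lower, Pcdhgc3, was number 14. Pcdhga2 had a lowest, median and highest value of 378, 482 and 581 in YNG rats, 396, 591 and 697 in AV rats, 442, 573 and 687 in AA rats, and 521, 629 and 769 in ADQ rats. The groups overlapped, with 6 AV, 5 AA and 7 ADQ rats above every YNG rat. Its log2 change in all older rats was 0.34 (1.26-fold, adjusted p = 0.00567).

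Pcdhga4 values were 149.7, 169 and 205.2 in YNG rats, 199.5, 222 and 272.8 in AV rats, 172, 210.4 and 242.2 in AA rats, and 160.1, 210.8 and 255.7 in ADQ rats (lowest, median and highest). In AV only 2 of 12 rats fell inside the YNG range, while in AA and ADQ 7 and 6 of 11 rats were above it. Its log2 change was 0.28 (SE 0.07, adjusted p = 0.0111).

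Pcdhga1, the most upstream gene of the cluster, was low throughout. Its lowest, median and highest values were 5.65, 15.7 and 26.3 in YNG rats, 15.8, 23.9 and 40.7 in AV rats, 12.7, 23.9 and 31.2 in AA rats, and 12.5, 22.6 and 40.5 in ADQ rats. The groups overlapped over most of their range, and its log2 change was 0.55 (SE 0.16, adjusted p = 0.0213). This adjusted call was lost in 2 of the 44 fits with 1 rat left out (up to 0.0884, without YNG rat V1). Pcdhga5 was higher at the unadjusted threshold alone (log2 change 0.30, p = 0.0181, adjusted p = 0.0817), and without YNG rat V10 its p was 0.0577.

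As a whole the Pcdhg cluster had no single direction. For a check, the rats were split by number into a lower range (older rats up to 4011, and V1 to V6) and a higher one (the other older rats, and V9 to V12). The split was set here, no label names it as a batch, and none ties the numbers of the young rats to those of the older ones. Among the lower-numbered rats 6 of 18 Pcdhg genes were higher and none lower in older rats (median 0.25), and among the higher-numbered rats none was higher and 4 were lower (median -0.12). For the Pcdhb cluster the same counts were 4 higher and none lower in both ranges (medians 0.25 and 0.16), with 15 and 13 of 16 changes above 0. Of all tested genes, 17.5% were higher and 20.5% lower among the lower-numbered rats (median 0.00), and 5.42% were higher and 3.39% lower among the higher-numbered rats (median 0.02). The difference between the ranges was not tested.

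Of the other 14 Pcdhg genes, only Pcdhgc3 passed the test. Pcdhgb7, with a high mean, had a log2 change of -0.06 (95% confidence interval -0.24 to 0.12), and Pcdhga7 one of 0.02. Pcdhgc3, the only listed isoform of the C type, which neurons express broadly rather than by choice, had medians of 4076 in YNG rats, 3832 in AV rats, 3807 in AA rats and 3662 in ADQ rats. Its groups overlapped and one YNG rat, V9, stood at 6109. Its log2 change was -0.17 (p = 0.00834, adjusted p = 0.0527). Without rat V9 the change was -0.12 (p = 0.0530), and with libraries scaled to the same total it was -0.04 (p = 0.5). Isoforms of the Pcdhg and Pcdha clusters share their 3′ exons, so reads from those exons cannot be assigned to one isoform and may be held largely by a few entries.

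Pcdhg promoters share less. Their commonest run of 7 letters was CGCTGTT, which holds the same core and which, on either strand, was in the promoters of 10 of 12 matched Pcdhg genes and in 662 of 33469 promoters in all (1.98%). It overlaps GGTGGCGCTG in the 5 letters CGCTG. The promoters of Pcdhga1 and Pcdhga4 did not hold these letters in this window. It is shown in capitals for Pcdhga2, which was higher in older rats, and for Pcdhga7, which was not.
Pcdhga2, chr18:29745078-29745124, plus strand: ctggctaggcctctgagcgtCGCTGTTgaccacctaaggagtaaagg
Pcdhga7, chr18:29794200-29794246, plus strand: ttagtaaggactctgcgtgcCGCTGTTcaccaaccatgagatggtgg
Matches of these letters describe the sequence only, since no binding was measured.

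**Figure D3:**
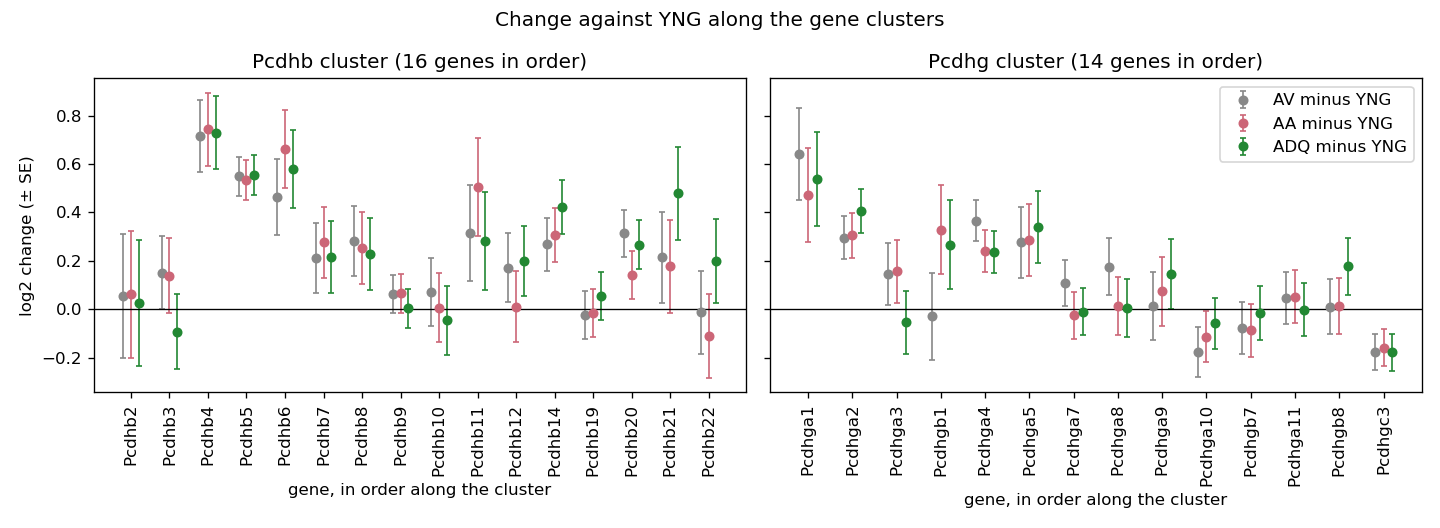
Log2 change against YNG (y axis, log2 scale of value + 1) for AV, AA and ADQ along the 16 Pcdhb genes and 14 of the 18 Pcdhg genes in RefSeq order (x axis), with points for the limma estimate and bars for SE. The 3 older groups lie together at Pcdhb4, Pcdhb5 and Pcdhb6, above the genes beside them, and Pcdhga1, Pcdhga2, Pcdhga4 and Pcdhga5 lie above 0 in each group.

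The Pcdha cluster was represented by Pcdha13, whose identifier held 10 rows of the table, and by 2 identifiers under the symbol Pcdha4, so single alpha isoforms could not be followed. Pcdha13 had medians of 2037 in YNG rats, 2019 in AV rats, 2096 in AA rats and 2295 in ADQ rats, with a log2 change of 0.06 in all older rats (95% confidence interval -0.06 to 0.19). One Pcdha4 identifier (47174) had medians of 114 in YNG rats, 134 in AV rats, 159 in AA rats and 153 in ADQ rats and a log2 change of 0.28 (p = 0.0498, adjusted p = 0.154). This call was lost in most of the fits with 1 rat left out, with p of up to 0.12 (without YNG rat V12). The other (50378) had a log2 change of -0.05 (95% confidence interval -0.35 to 0.25).

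Summed over its 16 genes, the Pcdhb cluster had 1624 ± 150 normalized reads in YNG (SD, n = 10), 1920 ± 206 in AV rats (SD, n = 12), 1910 ± 130 in AA rats and 1941 ± 150 in ADQ rats (SD, n = 11 each). Its share of all protocadherin values was 6.10% for YNG rats and 7.46%, 7.34% and 6.95% for the AV, AA and ADQ rats. The Pcdhg sum showed no such difference, with 7847 ± 1184 in YNG rats, 7608 ± 617 in AV rats, 7552 ± 702 in AA rats and 7611 ± 718 in ADQ rats. A large part of it was Pcdhgc3, the gene called lower, with means of 4373, 3841, 3892 and 3844 in YNG, AV, AA and ADQ rats. The sum therefore says little about the other Pcdhg genes. Of all 18, 14 had fitted changes above 0 in all older rats. These sums are given as descriptions, with no test.

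**Figure D4:**
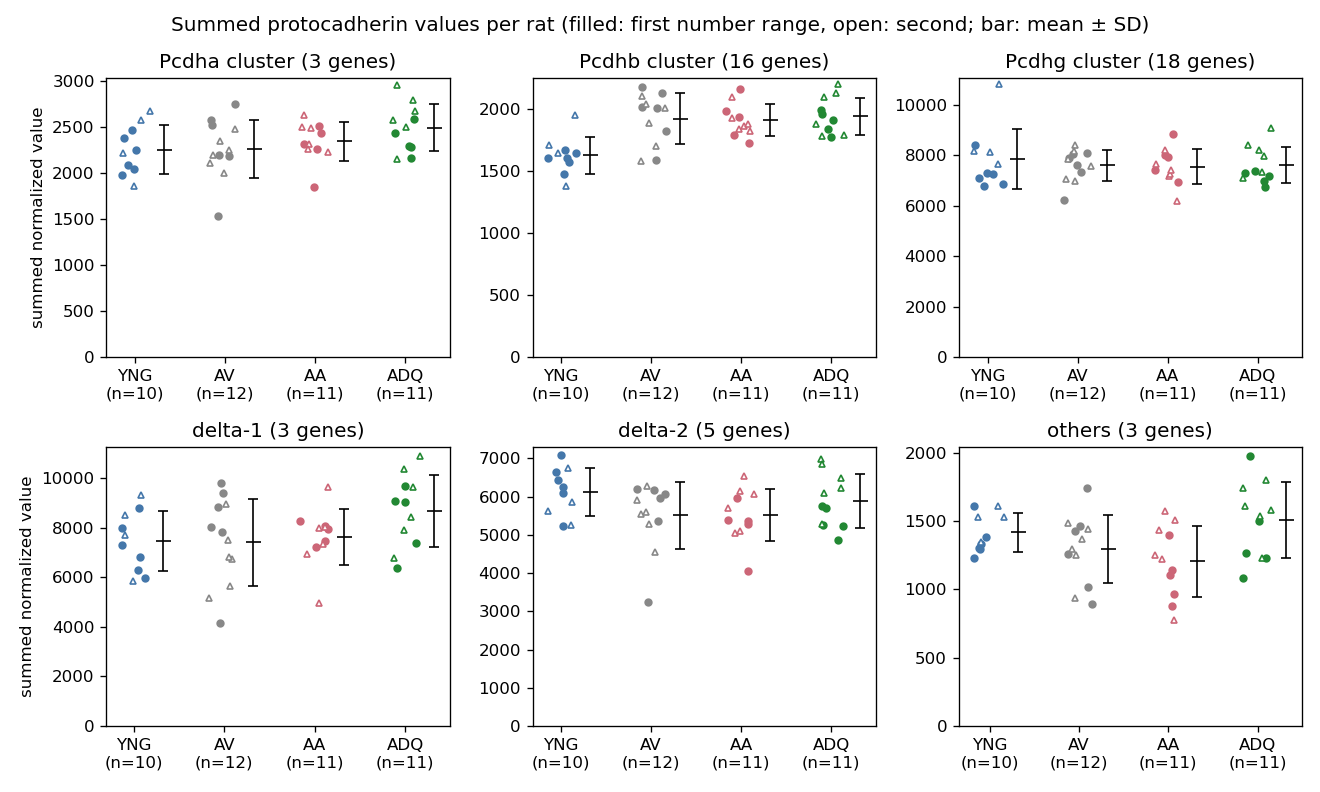
Summed normalized read counts per rat (y axis, linear from 0) of the Pcdha, Pcdhb, Pcdhg, delta-1, delta-2 and other protocadherins in the 4 groups, with bars for mean ± SD. The mean Pcdhb sum lies higher in the AV, AA and ADQ groups than in YNG, and the ranges of all 6 sums overlap between the groups.

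Among the protocadherins outside the clusters, Pcdh19 was the one gene with an adjusted p below 0.05. Pcdh19 is an X-linked delta-2 protocadherin that binds N-cadherin on the same membrane and whose gene is linked to a form of epilepsy in people. It had a lowest, median and highest value of 1290, 1875 and 2939 in YNG rats, 679, 1305 and 2418 in AV rats, 616, 1152 and 1724 in AA rats, and 1055, 1479 and 2073 in ADQ rats. The groups overlapped, with 6 of 12 AV, 9 of 11 AA and 3 of 11 ADQ rats below every YNG rat, and 3 YNG rats (V1, V2 and V4) stood above all older rats at 2939, 2823 and 2897. Its log2 change in all older rats was -0.59 (SE 0.14, adjusted p = 0.00913).

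The lower Pcdh19 level was not even over the 2 ranges of rat numbers. Among the lower-numbered rats the change of Pcdh19 was -0.91 (p = 2.8e-05), and among the higher-numbered rats it was -0.19 (p = 0.36), while the difference between the ranges was not tested. The YNG means were 2283 ± 696 (SD, n = 6) and 1587 ± 299 (SD, n = 4).

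Pcdhb5 held in both ranges (0.50, p = 1.4e-05, and 0.58, p = 2.9e-05), as did Pcdhb4 (0.92, p = 1.3e-05, and 0.49, p = 0.017). Pcdhb6 (0.68 and 0.37), Pcdhga1 (0.67 and 0.34), Pcdhga2 (0.43 and 0.20) and Pcdhga4 (0.35 and 0.16) passed among the lower-numbered rats and missed the threshold among the higher-numbered ones, with p of 0.066, 0.16, 0.11 and 0.17. For Pcdhb14 (0.24 and 0.41) and Pcdhb20 (0.14 and 0.37) it was the lower range that missed it, with p of 0.099 and 0.27.

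Pcdh19 was also held in 2 rows of the table. The row with 74.7% of its values had means of 1679 ± 686 in YNG rats, 1010 ± 434 in AV rats, 788 ± 253 in AA rats and 1000 ± 246 in ADQ rats (SD). The other row had 326 ± 112, 371 ± 192, 357 ± 101 and 438 ± 76.6 in the same order. The difference thus lay in the larger row. What distinguishes the rows was not given in the sources used here.

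Pcdh19 moved with the markers of cell types. Over the 44 rats, after the group means were removed, its log2 level went with the summed granule cell markers (r = 0.70, rho = 0.65, adjusted permutation p = 3.3e-05 and 0.0001). It went against the summed CA1 markers (r = -0.59, rho = -0.53, adjusted permutation p = 3.3e-05 and 0.00068). The 4 rats of low granule cell markers had 679, 843, 699 and 616 normalized reads of Pcdh19, the lowest values among all 44 rats. Without those 4 rats r was 0.53 and -0.37, without the 2 rats farthest from the median of the marker sum it was 0.68 and -0.50, and within the 2 ranges of rat numbers it was 0.72 and 0.73 for the granule markers and -0.61 and -0.66 for the CA1 markers. The change of Pcdh19 in all older rats was -0.48 (p = 0.000187) without the 4 rats and -0.60 (p = 7.31e-06) with a term for the CA1 markers, both chosen after seeing the data. Pcdh19 also went against the summed markers of interneurons (6 genes, Gad1 the most abundant, r = -0.66). Their medians were 6520 for YNG rats and 7563, 8038 and 7691 for the AV, AA and ADQ rats. It went against those of oligodendrocyte precursors too (4 genes, Olig1 the most abundant, r = -0.75). The precursor medians were 3012 for YNG rats and 3476, 3317 and 3299 for the AV, AA and ADQ rats. Pcdh19 further went against the markers of oligodendrocytes (r = -0.58), astrocytes (r = -0.51), meninges and fibroblasts (r = -0.44) and endothelial cells (r = -0.39). All 5 endothelial markers tested had fitted changes above 0 in all older rats (median 0.31), and 2 were higher at the adjusted threshold. The part of interneurons, precursors, astrocytes, endothelial cells and meninges in the result was not tested. With a term for the oligodendrocyte markers, also chosen after seeing the data, the change of Pcdh19 was -0.47 (p = 0.000347). Of the 4 granule cell markers tested, 2 were lower in all older rats, 1 of them at the adjusted threshold (median log2 change -0.22). No fit with a term for the granule markers is given here.

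The same marker sums were set beside Pcdhb4 and Pcdhb5. Pcdhb4 went with the CA1 markers (r = 0.58, rho = 0.59, adjusted permutation p = 0.0001 and 0.0002) and against the granule markers (r = -0.48, rho = -0.46, adjusted permutation p = 0.00074 and 0.0027), and these were -0.38 for the granule and 0.50 for the CA1 markers without the 4 rats. It also went with the summed markers of oligodendrocyte precursors (r = 0.46), interneurons (r = 0.43), astrocytes (r = 0.40) and oligodendrocytes (r = 0.36), and the medians of the first 2 were higher in each older group, as given for Pcdh19. With a term for the oligodendrocyte markers the change of Pcdhb4 in all older rats was 0.67 (p = 1.44e-06), and the part of the other 3 in it was not tested. For Pcdhb5, r was 0.19 with the granule and -0.06 with the CA1 markers, with adjusted permutation p of 0.23 and 0.71. In the lower and the higher range of rat numbers it was 0.54 and 0.01 for the granule markers and -0.44 and 0.29 for the CA1 markers. Pcdhb5 went against the oligodendrocyte markers (r = -0.38), and with a term for them its change in all older rats was 0.58 (p = 2.45e-11). In the fit with the CA1 term the change in all older rats was 0.74 for Pcdhb4 and 0.55 for Pcdhb5. Permutation p were computed for 10 relations, of 5 genes with the granule and CA1 sums, chosen after seeing the data, and are adjusted over these 10 alone. The r with other marker sums have no p. They are picked from those of all 48 genes with every marker sum, a choice the adjustment does not cover.

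**Figure D5:**
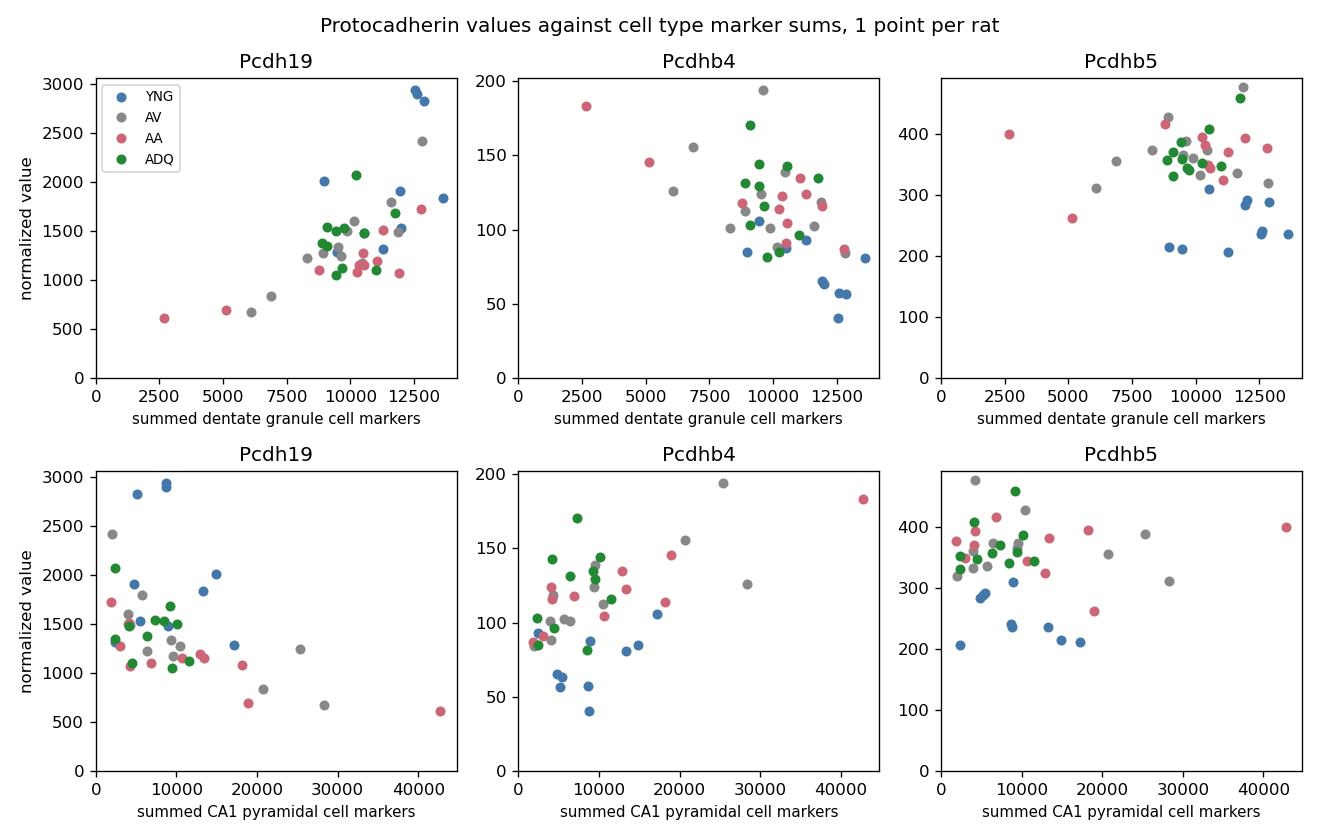
Normalized read counts of Pcdh19, Pcdhb4 and Pcdhb5 (y axis) against the summed granule cell and CA1 markers (x axis) in each of the 44 rats, colored by group, on linear axes from 0. The 4 rats with the lowest granule marker sums, from 2672 to 6873, have the lowest Pcdh19 values.

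Other protocadherins outside the clusters changed less. Pcdh17, a delta-2 member found at presynaptic sites, had medians of 959 in YNG rats, 830 in AV rats, 824 in AA rats and 942 in ADQ rats, and its log2 change in all older rats was -0.20 (p = 0.0385, adjusted p = 0.13). This call was lost without any one of 5 YNG rats (V4, V5, V6, V9 or V11), with p of up to 0.124, without the 4 rats of low granule cell markers (-0.16, p = 0.068), and with libraries scaled to the same total (-0.07, p = 0.55). Pcdh8, a delta-2 member that neuronal activity induces, had means of 2200 ± 410 in YNG rats, 2274 ± 511 in AV rats, 2523 ± 581 in AA rats and 2556 ± 435 in ADQ rats (SD) and a change of 0.15 (95% confidence interval -0.09 to 0.38). Pcdh10 had a change of 0.07 (-0.15 to 0.28). The delta-1 genes Pcdh1, Pcdh9 and Pcdh7 had changes of 0.09 (-0.12 to 0.31), -0.07 (-0.29 to 0.15) and 0.08 (-0.21 to 0.38). Pcdh15, part of the tip link of hair cells, had a change of 0.21 (-0.08 to 0.50), and Pcdh12, an endothelial protocadherin, one of 0.22 (-0.25 to 0.69).

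The vehicle comparison, AV against YNG, called 9 protocadherins higher and 3 lower (25%, against 21.3% of all tested genes, 10.6% higher and 10.7% lower). At the adjusted threshold 3 were higher and none lower, beside 2.35% of all tested genes (1.81% higher and 0.539% lower). These were Pcdhb5 (log2 change 0.55, adjusted p = 5.72e-05), Pcdhb4 (0.72, adjusted p = 0.00495) and Pcdhga4 (0.37, adjusted p = 0.0123). Pcdhga1 (0.64) and Pcdhga2 (0.30) were next among those at the unadjusted threshold. Over 15 alternative settings, the lowest changes were 0.18 for Pcdhga4, 0.34 for Pcdhga1 and 0.11 for Pcdhga2. Each of these 3 genes lost the unadjusted threshold in 1 setting, with limma p of up to 0.17, 0.23 and 0.46. Pcdh19 changed by -0.54 (p = 0.00293, adjusted p = 0.0781). In the Pcdhb cluster 5 of 16 genes were higher and none lower. Cell type markers differed in the same comparison. All 5 endothelial markers tested (median 0.65, 2 at the adjusted threshold) and 5 of 6 oligodendrocyte markers (median 0.39) were higher in AV rats, and none of these was lower. Of 4 granule cell markers, 1 was lower, also at the adjusted threshold, and none was higher.

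The senolytic groups were each set against the same 10 YNG rats, so these comparisons are not independent of the one above. In AA 8 were higher and 3 lower (22.9%, against 26.6% of all tested genes, 12.6% higher and 14.1% lower), and 4 and 1 of these passed the adjusted threshold, beside 3.85% of all tested genes (1.55% higher and 2.31% lower). They were Pcdhb5 (0.54, adjusted p = 0.000249), Pcdhb4 (0.74, adjusted p = 0.0122), Pcdhb6 (0.66, adjusted p = 0.0256), Pcdhga2 (0.30, adjusted p = 0.0491) and, lower, Pcdh19 (-0.79, adjusted p = 0.0217). With 1 rat left out at a time, the adjusted calls of Pcdhb5 and Pcdhb4 held in all 44 fits. That of Pcdhga2 was lost in 30 (up to 0.113, without YNG rat V1), that of Pcdhb6 in 5 (up to 0.0694, without V2) and that of Pcdh19 in 3 (up to 0.0602, without V2). Over 15 alternative settings, the changes nearest 0 were 0.16 for Pcdhga2 and -0.42 for Pcdh19. Each lost the unadjusted threshold in 1 setting, with limma p of up to 0.27 and 0.093.

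In ADQ 11 were higher and 2 lower (27.1%, against 28.1% of all tested genes, 13.5% higher and 14.6% lower), and 5 passed the adjusted threshold, all higher, beside 7.08% of all tested genes (3.12% higher and 3.96% lower). They were Pcdhb5 (0.56, adjusted p = 8.88e-05), Pcdhb4 (0.73, adjusted p = 0.00821), Pcdhga2 (0.41, adjusted p = 0.0138), Pcdhb14 (0.42, adjusted p = 0.0225) and Pcdhb6 (0.58, adjusted p = 0.0271). The adjusted calls of Pcdhb6 and Pcdhb14 were lost in 6 and 3 of the 44 fits with 1 rat left out (up to 0.0673 without V1 and 0.0582 without V2). Pcdhb14 also missed the unadjusted threshold in 1 of 15 alternative settings (limma p = 0.067). Pcdh19 changed by -0.44 in ADQ rats (p = 0.0158), and this missed the adjusted threshold.

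No protocadherin differed between older groups at an adjusted p below 0.05, and neither did any other tested gene, by limma. At the unadjusted threshold, AA against AV called 1 protocadherin higher and 1 lower (4.17%, against 4.51% of all tested genes, 1.4% higher and 3.1% lower). Pcdh18, a delta-2 member, had a lowest, median and highest value of 32.9, 60.0 and 85.9 in AV rats and 30.8, 51.6 and 64.3 in AA rats. The groups overlapped, and the high AV values were those of lower-numbered rats (76.6 ± 9.01, SD, n = 6, against 49.8 ± 10.1, SD, n = 6, in the higher-numbered). The log2 difference was -0.37 (95% confidence interval -0.65 to -0.10, p = 0.00858, adjusted p = 0.999). It was -0.49 (p = 0.004) in the lower range and -0.22 (p = 0.24) in the higher range. Over the 44 rats, Pcdh18 went with the summed markers of interneurons (r = 0.49), astrocytes (r = 0.45) and endothelial cells (r = 0.39). All 5 endothelial markers tested were lower in AA than in AV by the fitted change (median -0.33, 2 called), as were all 6 astrocyte markers (median -0.13, 1 called), while all 6 interneuron markers were higher (median 0.18, 1 called). The summed endothelial markers, Cldn5 the most abundant, had medians of 2982 in AV rats and 2370 in AA rats, and the summed astrocyte markers, Gfap the most abundant, 54043 and 45096. The part of these markers in the difference of Pcdh18 was not tested. Pcdhgb1 was higher by 0.36 (p = 0.0468), a call that was lost when single rats were left out (p of up to 0.114, without AA rat 3988).

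ADQ against AV called 2 protocadherins higher (4.17%, against 9.32% of all tested genes, 3.42% higher and 5.9% lower). Pcdh1 had a lowest, median and highest value of 3647, 6596 and 8562 in AV rats and 5452, 7654 and 9522 in ADQ rats, with the 2 groups overlapping over most of their range. The difference was 0.28 (95% confidence interval 0.03 to 0.52, p = 0.0295, adjusted p = 0.484), and it was 0.21 (p = 0.08) without AV rat 3989. Among the lower-numbered rats the Pcdh1 means were 6905 ± 1739 in AV and 7245 ± 1283 in ADQ (SD, n = 6 and 5). Among the higher-numbered rats they were 5695 ± 1288 and 7711 ± 1503 (SD, n = 6 each). Pcdha13 was higher by 0.16 (0.02 to 0.30, p = 0.0306, adjusted p = 0.489), and by 0.11 (p = 0.089) without AV rat 3989. Its means were 2068 ± 374 in AV and 2127 ± 125 in ADQ among the lower-numbered rats (SD, n = 6 and 5). They were 1983 ± 135 and 2359 ± 254 among the higher-numbered rats (SD, n = 6 each). Without the 4 rats of low granule cell markers the differences of Pcdh1 and Pcdha13 were 0.14 (p = 0.22) and 0.09 (p = 0.15). Cell type markers differed in the same comparison: 4 of 6 oligodendrocyte markers (median -0.33), 4 of 6 microglial markers (-0.30), 4 of 5 endothelial markers (-0.53) and 4 of 4 red blood cell markers (-0.87) were lower in ADQ rats, and none of these was higher. Over the 44 rats Pcdha13 went against the summed oligodendrocyte (r = -0.65), astrocyte (r = -0.57) and microglial markers (r = -0.49), and Pcdh1 against the microglial (r = -0.46) and oligodendrocyte markers (r = -0.44). With a term for the oligodendrocyte markers the differences were 0.15 for Pcdh1 (p = 0.207) and 0.06 for Pcdha13 (p = 0.336), so that neither was called.

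AA against ADQ, a comparison of the 2 senolytics, called 2 protocadherins lower in AA (4.17%, against 4.53% of all tested genes, 2.13% higher and 2.4% lower). Pcdh20 had a lowest, median and highest value of 622, 1106 and 1437 in AA rats and 925, 1407 and 1764 in ADQ rats. The groups overlapped, and AA rats 3996 and 4107, with low granule cell markers, were the lowest of all rats at 674 and 622. The difference was -0.36 (-0.62 to -0.10, p = 0.00832, adjusted p = 0.981), and -0.21 (p = 0.053) without the 4 rats of low granule cell markers. Over the 44 rats Pcdh20 went against the summed markers of oligodendrocyte precursors (r = -0.72), oligodendrocytes (r = -0.63), CA1 neurons (r = -0.60) and interneurons (r = -0.48). In AA against ADQ, all 5 CA1 markers (median 0.49), all 6 oligodendrocyte markers (median 0.20) and 5 of 6 interneuron markers (median 0.19) had fitted changes above 0, of which 1 interneuron marker was called. The difference of Pcdh20 was -0.27 (p = 0.0151) with a term for the CA1 markers and -0.24 (p = 0.0273) with one for the oligodendrocyte markers, and the part of the others was not tested. Pcdh19 was lower by 0.36 in AA rats (log2 difference -0.36, -0.70 to -0.01, p = 0.0429), and the difference was -0.27 (p = 0.111) without AA rat 4107 and -0.19 (p = 0.2) without the 4 rats, and it was -0.24 (p = 0.093) with the CA1 term and -0.21 (p = 0.149) with the oligodendrocyte term.

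For Pcdhb5 and Pcdhb4, the fitted differences between older groups were near 0. The difference of Pcdhb5 was -0.01 (95% confidence interval -0.17 to 0.15) in AA against AV, 0.01 (-0.16 to 0.17) in ADQ against AV and -0.02 (-0.18 to 0.14) in AA against ADQ. For Pcdhb4 the first of these was 0.03 (-0.26 to 0.32) and the second 0.01 (-0.28 to 0.31). Pcdh19 differed by more, with -0.25 (-0.59 to 0.08, p = 0.134) in AA against AV beside the called difference between the senolytics given above. No Pcdhb gene was called in any of the 3 comparisons between older groups.

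The values of many protocadherins varied together between rats of the same group. After the group means were removed, the median r over the 153 pairs of Pcdhg genes was 0.35, with 151 pairs above 0, and over the 120 pairs of Pcdhb genes it was 0.21, with 94 above 0 (n = 44 rats, whose values share the scaling between libraries, given as a description). It was 0.45 within Pcdha, 0.52 within the delta-1 type and 0.10 within the delta-2 type. Between the clusters the median was 0.14 for Pcdhb with Pcdhg (288 pairs), 0.26 for Pcdha with Pcdhb and 0.28 for Pcdha with Pcdhg. With the delta-1 genes it was 0.51 for Pcdha, 0.29 for Pcdhb and 0.42 for Pcdhg, and with the delta-2 genes it was 0.16, 0.17 and 0.23. The pairs with the highest r were Pcdh9 with Pcdh7 (0.80), and Pcdh7 with Pcdh17 (0.79), and Pcdhb4 and Pcdh19 went in opposite directions (-0.63).

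Genes related to protocadherins were listed in 3 sets: promoter choice and chromatin, intracellular partners, and other cadherins with catenins. Of 20 genes for promoter choice and chromatin, 5 were higher and 1 lower in all older rats, 2 of them at the adjusted threshold (median log2 change 0.10), beside 32.4% of all tested genes called and 14.9% at the adjusted threshold. The repressor of neuronal genes Rest had a lowest, median and highest value of 20.2, 51.8 and 60.2 in YNG rats, 28.4, 74.7 and 113.2 in AV rats, 42.2, 54.9 and 113.9 in AA rats, and 58.7, 74.7 and 111.4 in ADQ rats, so that the groups overlapped. It was higher by 0.74 (SE 0.17, adjusted p = 0.00783) in all older rats, and the changes of the AV, AA and ADQ groups were 0.75, 0.64 and 0.83. The maintenance DNA methyltransferase Dnmt1 was higher by 0.24 (adjusted p = 0.0421). Ctcf itself had medians of 853, 823, 872 and 889 for YNG, AV, AA and ADQ rats and a change of -0.03 (p = 0.64). In ADQ against YNG, Mau2, a cohesin loader, was higher beside Rest (0.36, p = 0.012). Between older groups the genes of this list with the smallest p were the cohesin subunit Stag2 in AA rats against AV (-0.28, p = 0.039), and the cohesin regulator Pds5b in ADQ against AV (0.12, p = 0.0464) and AA against ADQ (-0.12, p = 0.0478).

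Of 20 intracellular partners found, 7 were higher and 3 lower in all older rats, 1 of them at the adjusted threshold (median 0.03), beside the same 32.4% and 14.9% of all tested genes. That gene was Adam10, a sheddase of cadherins (0.31, adjusted p = 0.0483), followed by Wasf2, a subunit of the actin-regulating WAVE complex (0.29, adjusted p = 0.0668). In single groups, Wasf2 (0.31) and the adhesion kinase Ptk2 (-0.16) led in AV, Wasf2 (0.37) and Wasf3 (0.29) in AA, and the gamma-secretase subunit Psen2 (-0.28, adjusted p = 0.0367) and Adam10 (0.37) in ADQ, each against YNG. Between older groups, the WAVE subunit Nckap1 was higher by 0.18 (p = 0.0219) and Psen2 changed by -0.18 (p = 0.0287) in ADQ against AV. Nckap1 changed by -0.21 (p = 0.00909) and the gamma-secretase subunit Aph1a by 0.17 (p = 0.0463) in AA against ADQ.

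Of 29 other cadherins and catenins, 2 were higher and 3 lower in all older rats (median 0.05), and 2 and 2 of these passed the adjusted threshold, beside the same 32.4% and 14.9% of all tested genes. Cdh18, a type II cadherin, was higher by 0.74 (SE 0.20, adjusted p = 0.0149), and Dchs1, a large atypical cadherin, was lower with -0.29 (adjusted p = 0.0233). In single groups, Ctnna2 (-0.30) and Ctnnd1 (0.30), both catenins, led in AV, Cdh18 (0.79) and Cdh4 (-0.36) in AA, and Dchs1 (-0.38, adjusted p = 0.0256) and Cdh18 (0.79, adjusted p = 0.0399) in ADQ. Between older groups, Clstn2 was higher by 0.46 (p = 0.0255) in ADQ against AV, and Cdh9 (-0.56, p = 0.0123) and Cdh2 (-0.14, p = 0.0151) were lower in AA against ADQ. Fat2, an atypical cadherin known from cerebellar granule cells, was called in AA against AV (1.83, p = 0.0224), but 1 AA rat held 6184 normalized reads and the median AA rat 1.96.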

How the data were processed

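Dentate gyrus RNA was sequenced from 44 rats. The authors aligned the reads to rn6 with STAR 2.5.3a in Partek Flow and deposited read counts scaled by the median ratio of DESeq2, treated here as a signal without a count model: 79.2 to 84.2% of low values in a library were whole multiples of the value of 1 read (within 0.05), too few to recover counts. Whether the counting used strand was not given in the sources used here. From those multiples, the depth was estimated as 10166556 to 24328321 reads per rat.

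The groups of older rats were read from the deposited table of sample attributes by rat name. Rows of a gene identifier were summed, genes with a mean of at least 5 were kept, and log2(value + 1) of 15598 genes was fitted with limma 3.58.1 in R 4.3.3 (1 fit of the 4 groups, empirical Bayes with a trend, 7 comparisons, Benjamini-Hochberg adjustment). The fit was tested on simulated data. Permutation tests used 100000 resamples, and the smallest p they can give is 1e-05. The members and lists were chosen with earlier results of these data known. Genes were named by rule: every member with an adjusted p below 0.05, the 5 with the smallest unadjusted p, the 3 with the highest mean per family, C-type isoforms, and the 2 leading genes per list. Other scalings, filters, pseudocounts, subsets of rats and single rats left out were tried. Separate rats are the replicates.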

Additional observations from a re-analysis of the deposited data

Results flagged for a closer look

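Among 48 genes and 8 sums examined in the 10 YNG rats, 6 genes and 2 sums had 1 rat whose gap to the nearest other rat, divided by the whole range, exceeded 0.466, the 95% critical value of Dixon's test. Chance flags about 1 in 20 groups. The groups of 11 or 12 older rats were not examined.

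Rat V9 stood highest for Pcdhgc3 (6109 normalized reads, next 4931), Pcdhga3 (316, next 196), the Pcdhg sum (10816, next 8405) and the sum of the 3 clusters (14674, next 12679). Rat V11 stood highest for Pcdha4 with identifier 50378 (172, next 107), Pcdhb8 (75.5, next 47.9) and Pcdh15 (208.5, next 138). Rat V6 stood highest for Pcdhb11 (63.5, next 40.8). Without rat V9, the change of Pcdhgc3 in all older rats had a p of 0.0530.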

How the results depend on the processing

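Of 30 pairs of a comparison and a called gene (those at an adjusted p below 0.05 or among the 5 smallest p), none reversed in any alternative, 11 kept their side of the threshold throughout, 19 lost it in at least 1 alternative and 4 lost it with 1 rat left out (Pcdh1 and Pcdha13 in ADQ against AV, Pcdh19 in AA against ADQ, and Pcdhgb1 in AA against AV). Over all 57 unadjusted calls of protocadherins in the 7 comparisons, 19 were lost with 1 rat left out, 6 of them among the 15 in all older rats (Pcdhb8, Pcdhb11, Pcdhga5, Pcdhgc3, Pcdh17 and Pcdha4 with identifier 47174). Pcdhb4 and Pcdhb5 kept theirs in each comparison with YNG. At the adjusted threshold 9 protocadherins passed in all older rats, against 15 with the same total, 15 with a term for the oligodendrocyte markers and 0 in the higher-numbered rats alone. In AV against YNG 3 passed, against 12 in the lower-numbered rats alone. The shares of all tested genes at the adjusted threshold in these alternative fits are not given here. The number of protocadherins called was 12, 11 and 13 in AV, AA and ADQ against YNG and 2 in each comparison between older groups. Scaled to the same total, it was 16, 21 and 23 against YNG and 22 in all older rats (21 higher, 1 lower). Of all tested genes, 18.1%, 28.3% and 27.7% were then higher in AV, AA and ADQ against YNG, and 4.21%, 4.89% and 5.82% lower. That scaling moved the median of all genes by 0.10, 0.15 and 0.14 in AV, AA and ADQ, and split all genes called in older rats into 4953 higher and 1013 lower, against 2449 and 2609 as deposited and 2989 and 2187 with the upper quartile. In the lower-numbered rats alone the number was 20 for AV against YNG, beside 15.2% of all tested genes higher and 18.3% lower. It was 5 for ADQ against AV (1.83% and 3.85% of all tested genes) and 1 between the 2 senolytics (2.98% and 3%). In the higher-numbered rats alone it was 7 for ADQ against YNG (4.33% of all tested genes higher and 2.57% lower). It was 0 for AA against AV (1.6% and 2.61%), 5 for ADQ against AV (4.99% and 4.75%) and 7 between the 2 senolytics (1.7% and 2.46%). With each pair of groups fitted alone it was 1 in AA against AV and 1 in ADQ against AV, and with the row of the highest mean alone 1 in AA against ADQ. For alternatives chosen after seeing the data, ADQ against AV and AA against ADQ gave 1 and 1 with a term for the CA1 markers, 0 and 1 with a term for the oligodendrocyte markers, and 0 and 1 without the 4 rats of low granule cell markers. The cause of these shifts was not tested. For fits other than the scalings and the 2 ranges of rat numbers, the shares of all tested genes are not given here. With 1 rat left out, the number ran from 11 to 14 in AV against YNG, 10 to 15 in AA against YNG, 11 to 17 in ADQ against YNG, 12 to 18 in all older rats, 1 to 3 in AA against AV, 0 to 3 in ADQ against AV (0 without AV rat 3989) and 1 to 3 in AA against ADQ. Other settings kept the number within 1.5 times. No paired analysis was possible because the rat numbers pair no rats across groups. Genes of low values, such as Pcdhga1, are limited by depth.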

Other observations

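The 10 rows under the Pcdha13 identifier held from 41.7% down to 1.40% of its values. They did not all move together: the second row had means of 255 ± 25.3 in YNG rats, 308 ± 60.4 in AV rats, 302 ± 63.1 in AA rats and 296 ± 60.9 in ADQ rats (SD), whereas the ninth row had 75.7, 55.7, 59.3 and 68.2 and the tenth 37.4, 23.8, 27.2 and 31.2. These rows were not tested, and which alpha isoform each one is was not given in the sources used here.

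Pcdh10 and Pcdh20, neither of which was called in all older rats, also moved with the cell type markers. They were not alone in this. Pcdh8 and Pcdhb19 each had r = 0.61 with the granule cell markers, and Pcdhb11 had r = -0.46. Pcdh8 also had r = -0.70 with the oligodendrocyte markers. No permutation p was computed for Pcdh8, Pcdhb19 or Pcdhb11. Over the 44 rats, Pcdh10 went against the granule cell markers (r = -0.70, rho = -0.55, adjusted permutation p = 4e-05 and 0.00042), with -0.62 without the 4 rats of low granule cell markers and -0.49 without the 2 rats farthest from the median. Pcdh20 went with them (r = 0.65, rho = 0.47, adjusted permutation p = 3.3e-05 and 0.002), but without the 4 rats r was 0.24. With the CA1 markers, r was 0.52 for Pcdh10 (rho = 0.42, adjusted permutation p = 0.00039 and 0.0058), 0.44 without the 4 rats and 0.39 without the 2 farthest. For Pcdh20 it was -0.60 (rho = -0.58, adjusted permutation p = 4e-05 and 0.00015), -0.37 without the 4 rats and -0.55 without the 2 farthest. Within the lower and the higher rat numbers r with the granule markers was -0.29 and -0.85 for Pcdh10 and 0.55 and 0.82 for Pcdh20, and with the CA1 markers it was 0.08 and 0.66 for Pcdh10 and -0.23 and -0.82 for Pcdh20.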
